A study of Sus scrofa with 10 samples.

Results

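TCF7L2, ZFHX3, ZFHX4, TFAP2D and EBF1 are 5 of the 22452 genes counted in single cells and nuclei of the pig medial entorhinal cortex (MEC). They were chosen because their levels were high in reelin (RELN) neurons of the E50 library that lacked cortical genes, so their levels in those cells are given as a description, without a test. All 5 were found in the deposited counts. The series holds 10 libraries from domestic pigs with no genetic or drug treatment, 8 of them fetal and 2 adult. Of the whole-cell libraries 1 came from embryonic day 50 (E50), 3 from E60, 3 from E70 and 1 from adult pigs, and there was 1 library of sorted nuclei at E70 and 1 in the adult. The libraries are called E50_1, E60_1 to E60_3, E70_1 to E70_3, Adult_1, E70_nc and Adult_nc, where nc marks nuclei. By the labels a library came from 1 to 3 pooled brains, and the library, not the cell, is the replicate.

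All 5 genes encode transcription factors. TCF7L2 is a DNA-binding partner of beta-catenin, the effector of canonical Wnt signalling, and is known from the developing thalamus and midbrain, from differentiating oligodendrocytes and from endothelium. ZFHX3 and ZFHX4 are large proteins with many zinc fingers and several homeodomains, expressed in maturing neurons of the brainstem, diencephalon and striatum. TFAP2D belongs to the AP-2 family and is known from the midbrain roof and from parts of the pallium. EBF1 is the founding early B-cell factor. It acts in B-cell development and also marks many newly born neurons, Purkinje cells, pericytes and other mural cells. In a bulk sum over a class, more cells with a transcript and more transcript per cell cannot be told apart, so shares of cells are given beside the levels where the cells matter.

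On the pig assembly Sscrofa11.1, RefSeq places TCF7L2 on the plus strand of chromosome 14 (123343695 to 123547332), ZFHX3 on the minus strand of chromosome 6 (15693987 to 15941301) and ZFHX4 on the minus strand of chromosome 4 (59384202 to 59580913). TFAP2D lies on the plus strand of chromosome 7 (44640281 to 44702561) and EBF1 on the plus strand of chromosome 16 (64357999 to 64753188). The 5 genes are thus on 5 chromosomes. The 250 bases before the annotated start of 3 of them are shown because these genes took the most different levels among the RELN neurons described further on. Capitals mark CG dinucleotides, and each sequence reads 5′ to 3′ on the strand of its gene.
TCF7L2 (chr14:123343445-123343694, plus strand): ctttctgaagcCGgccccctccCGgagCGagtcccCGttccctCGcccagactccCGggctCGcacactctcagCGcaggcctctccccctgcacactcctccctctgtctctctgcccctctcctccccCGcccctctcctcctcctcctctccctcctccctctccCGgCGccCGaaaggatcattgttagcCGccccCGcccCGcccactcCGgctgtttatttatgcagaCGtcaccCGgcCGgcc
TFAP2D (chr7:44640031-44640280, plus strand): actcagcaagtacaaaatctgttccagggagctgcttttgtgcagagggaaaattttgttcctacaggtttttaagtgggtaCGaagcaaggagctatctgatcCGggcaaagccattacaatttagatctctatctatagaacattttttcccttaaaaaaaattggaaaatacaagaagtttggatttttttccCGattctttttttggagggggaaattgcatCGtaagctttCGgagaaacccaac
EBF1 (chr16:64357749-64357998, plus strand): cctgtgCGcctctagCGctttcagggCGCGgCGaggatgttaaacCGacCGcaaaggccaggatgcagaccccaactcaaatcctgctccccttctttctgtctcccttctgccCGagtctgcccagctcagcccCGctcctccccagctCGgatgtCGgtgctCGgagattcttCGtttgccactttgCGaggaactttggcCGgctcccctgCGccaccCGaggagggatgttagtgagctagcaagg
These stretches held 19 CG dinucleotides before TCF7L2, 5 before TFAP2D and 17 before EBF1, and the same stretch held 32 before ZFHX3 and 3 before ZFHX4. The median over 19569 protein-coding genes was 12. The G and C content was 69.2% for TCF7L2, 69.2% for ZFHX3, 61.6% for EBF1, 38.4% for TFAP2D and 30% for ZFHX4, against a median of 57.6%. A TCF/LEF motif (CTTTGAT), an EBF motif (TCCCNNGGGA) and an AP-2 motif (GCCNNNGGC) were searched on both strands. None of these letters occurred in the window of any of the 5 genes, while 2.09%, 0.940% and 21.98% of all windows held them. The annotated starts were not tested here, and a start further upstream would move the window.

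Cells were grouped by clustering with the 5 genes kept out, and each class is called by its markers with the word like. Of 28229 cells, 5454 (19.3%) stayed in 9 unnamed clusters. Libraries E60_1 and E60_2 stood apart from the rest: they held no cortical excitatory-like, GABAergic neuron-like or IP-like (intermediate progenitor) cells, while E60_3 held 789, 255 and 683 of them. E60_1 held 93 Purkinje-like and 332 granule neuron-like cells, cell types of the cerebellum, and E50_1 held 133 and 213. Comparisons of stages within a set of cells are therefore also given without E60_1 and E60_2, which leaves 1 E60 library. The median number of UMIs per cell lay between 4251 and 9403 in the 8 whole-cell libraries and was 2616 in E70_nc and 690 in Adult_nc. Pairs of libraries shared at most 57 barcodes, and the 57 were shared by E50_1 and E60_1.

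The E50 RELN neurons that chose the genes were 571 of the 5506 cells of E50_1, and they made up most of the 594 RELN6-like cells of the series. RELN reached 602.5 counts per 1000000 UMIs (CPM), SLC17A6, a vesicular glutamate transporter, 200.3 CPM against 62.0 CPM in the cortical excitatory-like cells of E50_1, and LHX9, a LIM homeobox gene of diencephalon and midbrain, 1077 CPM. Cortical genes were low in them. NEUROD6 was at 35.1 CPM against 850.8 CPM in the 1675 cortical excitatory-like cells of the same library, EMX1 at 4.65 against 86.4 CPM and TBR1 at 0.698 against 32.8 CPM. LHX2, which the cortex also uses, was at 373.6 CPM in the RELN6-like cells and 49.1 CPM in the cortical excitatory-like cells.

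In these 571 cells TCF7L2 was at 1415 CPM (95% Poisson interval 1380 to 1451), against 26.8 CPM in the cortical excitatory-like cells of E50_1, a 52.9-fold ratio. TFAP2D was at 1077 CPM (1046 to 1108) against 66.6 CPM (16.2-fold). ZFHX3 was at 562.5 CPM (540.3 to 585.3) against 23.1 CPM (24.3-fold), and its relative ZFHX4 at 424 CPM (404.4 to 443.5) against 14.5 CPM (29.2-fold). EBF1 was at 290.5 CPM (274.6 to 307.1) against 17.7 CPM (16.4-fold). The intervals cover counting error only, and there was no other E50 library. Ranked by this ratio over all 22452 genes, TCF7L2 was at place 2, ZFHX4 at 5, ZFHX3 at 6, TFAP2D at 12 and EBF1 at 13, which is the contrast that chose them.

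The share of cells with a UMI set EBF1 apart from the other 4 genes. ZFHX3 was detected in 92.6% of the RELN6-like cells, TFAP2D in 86.0%, TCF7L2 in 82.8% and ZFHX4 in 80.4%, and EBF1 in 38.0%, at a median of 7206 UMIs per cell. In the 125 microglia-like cells of E50_1, at a median of 11334 UMIs, TFAP2D was detected in 4.80%, ZFHX4 in 8.80% and EBF1 in 13.6%. TCF7L2 (55.2%) and ZFHX3 (66.4%), which microglia-like cells carried at 109 and 135 CPM, were detected in more of them. In the 161 erythroid-like cells, at a median of 8408 UMIs, the 5 shares lay between 4.35% and 6.21%. In cortical excitatory-like cells, at a median of 8420 UMIs, the 5 shares lay between 8.30% (ZFHX4) and 14.99% (TFAP2D). Drawn down to 1000 UMIs per cell, the shares in RELN6-like cells were 56.6% for TCF7L2, 50.4% for TFAP2D, 41.7% for ZFHX3, 31.0% for ZFHX4 and 17.3% for EBF1. At that depth microglia-like cells had shares of 11.2%, 0, 9.60%, 1.6% and 0.8% in the same order, and no cell of these classes was too shallow. A share of 0 among 125 cells allows up to 2.40% of cells with a UMI.

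Most RELN6-like cells carried several of the 5 transcripts at once. The genes were chosen for high levels in these cells against cortical ones, so the counts are a description. Whether the genes occurred together more often than their single shares give was not tested. All 5 were detected in 94 of the 571 cells (16.5%), 4 in 311 (54.5%), 3 in 131 (22.9%), 2 in 27 and 1 in 8, and no cell lacked all of them. Among cortical excitatory-like cells 970 of 1675 (57.9%) had none and 21 (1.25%) had 4 or 5. At 1000 UMIs per cell 7.36% of the RELN6-like cells and none of the cortical excitatory-like cells had 4 or 5, which allows up to 0.179% of the latter.

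**Figure D1:**
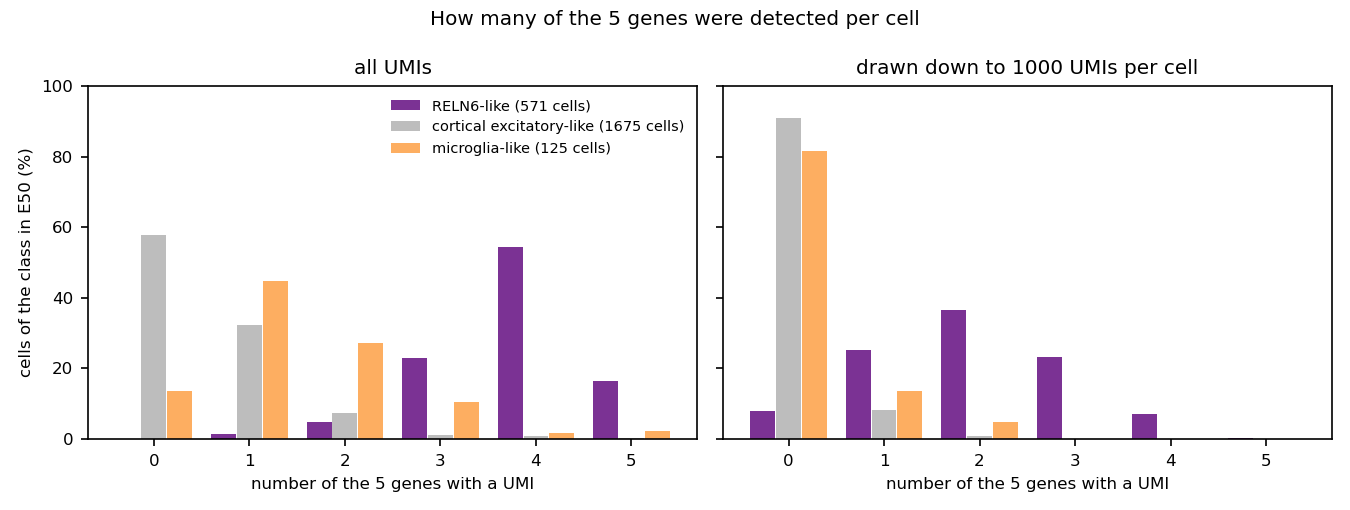
Share of E50 cells of 3 classes (y axis, percent) by how many of the 5 genes had a UMI (x axis), with all UMIs at left and after drawing each cell down to 1000 UMIs at right. RELN6-like cells peak at 4 genes with all UMIs (54.5% of 571 cells), whereas 57.9% of cortical excitatory-like cells have none.

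EBF1 and TCF7L2 levels ran in opposite directions among the RELN6-like cells, although many cells had both. The cells were divided by their EBF1 UMIs, a division chosen after the values were seen, into 354 cells with 0, 111 with 1 to 3 and 106 with 4 or more. Their median depths were 6929, 7356 and 7856 UMIs. TCF7L2 was at 1943 CPM in the cells without EBF1, 1070 CPM in the middle group and 206.6 CPM (177.5 to 239.0) in the cells with 4 or more EBF1 UMIs, 9.40-fold below the first group. A TCF7L2 UMI was found in 95.8%, 77.5% and 45.3% of the cells of these groups. TFAP2D followed the same order, at 1360, 927.5 and 391.3 CPM. ZFHX4 was at 482.5, 444.7 and 229.5 CPM and ZFHX3 at 607.0, 537.1 and 456.7 CPM, so ZFHX3 differed least, by 1.33-fold. RELN itself was at 611.7, 636.4 and 541.6 CPM, although the share of cells with a RELN UMI was 78.25% without EBF1 and 54.7% with 4 or more EBF1 UMIs. Of the 337 cells with 6 or more TCF7L2 UMIs, 10 (2.97%) had 4 or more EBF1 UMIs, whereas 58 of the 98 cells without a TCF7L2 UMI (59.2%) did. Over the 571 cells, which share 1 library, Spearman's rho of the CPM values was -0.58 for TCF7L2 with EBF1, -0.38 for TFAP2D with EBF1 and 0.35 for TCF7L2 with TFAP2D, given as a description. Since all of these cells are from 1 library, these differences have no replicate check.

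The cells with 4 or more EBF1 UMIs carried other early B-cell factors. EBF2 was at 784.9 CPM in them and 35.9 CPM in the cells without EBF1 (21.9-fold), and EBF3 at 202.0 and 30.8 CPM (6.55-fold). EBF4 was close to even between them (0.956-fold). Of the TCF/LEF relatives of TCF7L2, LEF1 was at 232.9 and 25.4 CPM (9.18-fold), opposite in direction to TCF7L2, and TCF7 at 11.5 and 12.5 CPM. TFAP2B, the AP-2 relative of TFAP2D, was at 252.5 and 41.8 CPM, although only 13.2% of the cells with 4 or more EBF1 UMIs had a TFAP2B UMI. SP5, a Wnt target, was at 25.25 and 1.95 CPM. NDST4, a heparan sulfate modifying enzyme, was at 62.0 and 1094 CPM, and LHX9 at 638.0 and 1255 CPM. Both are among the markers that named these cells. These and the next genes were chosen after their values were seen. NEUROD4, a proneural factor, was at 62.0 and 1.56 CPM, and LHX2 at 580.6 and 301.8 CPM. Of the other intermediate progenitor markers, NEUROD1 (39.0 and 2.34 CPM) and HES6 (247 and 160 CPM) were also higher with EBF1. PAX6 (1.15 and 1.56 CPM) and EOMES (0 and 0.39 CPM) were not, and NEUROG1 and NEUROG2 were at 0 in both groups. Of the 5 general neuron markers, DCX was at 195 and 170 CPM and RBFOX3 at 41.3 and 27.3 CPM. STMN2 (2920 and 3460 CPM), GAP43 (1030 and 1720 CPM) and SNAP25 (163 and 177 CPM) were lower with EBF1. Markers of the other classes with EBF1 were also summed. The 6 Cajal-Retzius markers, RELN among them, came to 969.7 CPM with 4 or more EBF1 UMIs and 714.8 CPM without EBF1. CALB2 was at 419 and 97.2 CPM and LHX1 at 5.74 and 0.781 CPM. RELN (542 and 612 CPM), TP73 (1.15 and 2.73 CPM), LHX5 and NDNF (1.15 and 1.17 CPM each) were not higher with EBF1. The part of such cells in the division was not tested. The 6 fibroblast markers came to 73.4 and 71.05 CPM. The 6 endothelial markers found came to 24.1 CPM with 4 or more EBF1 UMIs and 24.98 CPM without EBF1, and the 6 Purkinje markers to 19.5 and 22.6 CPM. The 8 mural markers came to 58.5 and 21.9 CPM, and to 154.8 CPM in the middle group. PDGFRB was at 41.3 CPM with 4 or more EBF1 UMIs, 134 CPM in the middle group and 2.73 CPM without EBF1, while no other mural marker exceeded 9.24 CPM, and the part of PDGFRB cells in the EBF1 division was not tested. The erythroid gene HBB was at 1540 and 861 CPM, and its part was not tested either. Of the 571 cells, 1 was called a doublet, and it was in the middle group.

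**Figure D2:**
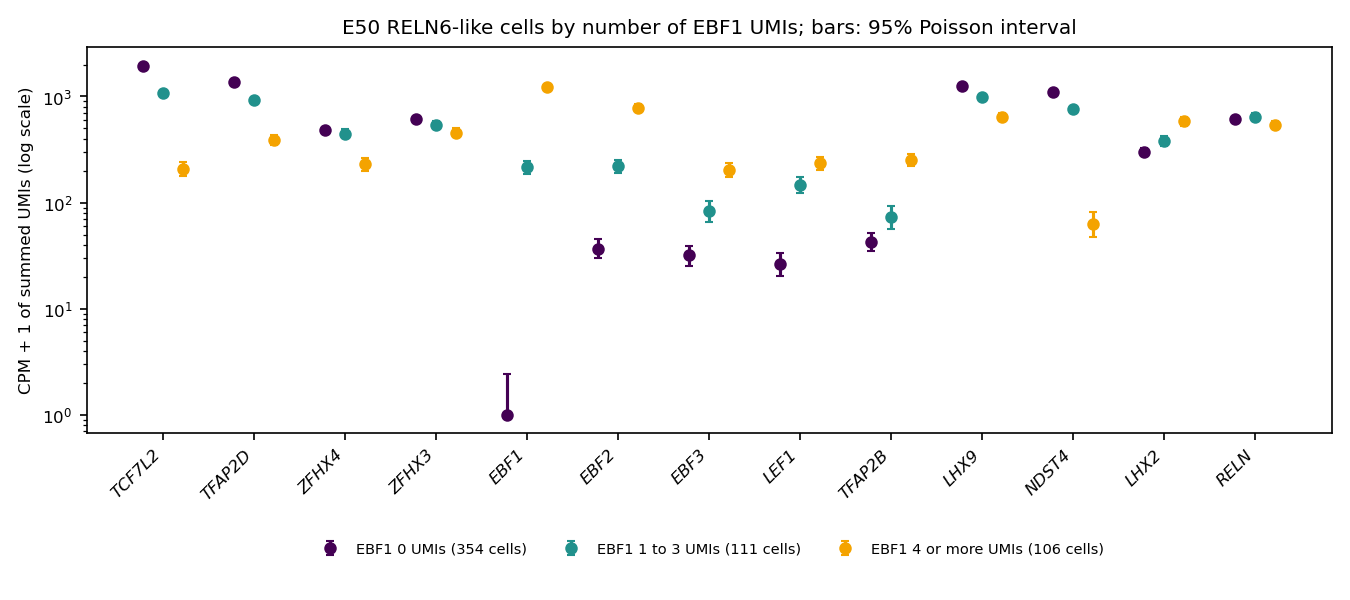
Level (y axis, CPM + 1 of summed UMIs, log scale) of selected genes in E50 RELN6-like cells divided by EBF1 UMIs, with 95% Poisson intervals as bars. TCF7L2 goes from 1943 CPM without EBF1 to 206.6 CPM with 4 or more EBF1 UMIs, EBF2 goes from 35.9 to 784.9 CPM, and RELN lies between 541.6 and 636.4 CPM.

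Outside E50 the RELN6-like cells were few. E60_1 held 18 of them, E60_2 4 and E70_3 1. In the 18 cells of E60_1 TCF7L2 was at 556 CPM (382.7 to 780.8), TFAP2D at 202.2 CPM (104.5 to 353.1), ZFHX3 at 185.3 CPM (92.5 to 331.6) and EBF1 at 101.1 CPM (37.1 to 220.0). ZFHX4 was at 252.7 CPM (141.4 to 416.8). These are values of 1 library with few cells, and since the E50 levels chose the genes, no comparison with them is made. The 4 cells of E60_2 had no TCF7L2 or TFAP2D UMI. Unnamed clusters of E50_1 carried some of the genes too. Cluster 14, led by TAC1, PCP4 and CALB1 over the series, had TCF7L2 at 289.3, EBF1 at 275.0 and TFAP2D at 127.2 CPM in its 40 E50 cells, and at 109.0, 149.6 and 11.5 CPM in its 443 E60_1 cells. Cluster 5, led by PENK, SST and TAC1, had EBF1 at 182.4, ZFHX3 at 170.9 and ZFHX4 at 164.8 CPM in its 655 E50 cells, but TCF7L2 at 53.5 and TFAP2D at 35.8 CPM.

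Families of the 5 genes were read from lists, each beside all genes. In the E50 RELN6-like cells 41.35% of all genes reached 10 CPM, and the median log2 ratio to cortical excitatory-like cells, with 1 CPM added, was 0. Of the 3 other TCF/LEF genes, 2 reached 10 CPM (LEF1 at 91.65 and TCF7 at 12.1 CPM), with a median log2 ratio of 0.55. Of the 4 other AP-2 genes only TFAP2B did, at 90.5 CPM. All 3 other early B-cell factors did, namely EBF2 (224.7 CPM), EBF3 (75.8 CPM) and EBF4 (29.1 CPM), with a median log2 ratio of 3.28. EBF4 was nevertheless higher in cortical excitatory-like cells, at 56.5 CPM, as was TCF7, at 16.2 CPM. ZFHX2, the third member of its family, was at 17.2 CPM. Of 6 Wnt targets and feedback genes, 3 reached 10 CPM: NKD1 (26.98 CPM), ZNRF3 (23.0 CPM) and AXIN2 (15.1 CPM). The median log2 ratio of the 6 was 0.46, and ZNRF3 and AXIN2 were higher in cortical excitatory-like cells, at 34.4 and 20.9 CPM. CTNNB1, which encodes beta-catenin, was at 189.8 CPM. Of 22 regional genes of diencephalon and midbrain, 7 reached 10 CPM, or 31.8%, a smaller share than of all genes, with a median log2 ratio of 0.23. They were LHX9, MEIS2 (877.9 CPM), EN2 (61.6 CPM), BARHL1 (31.6 CPM), IRX3 (17.45 CPM), BARHL2 (16.5 CPM) and IRX2 (13.03 CPM). LHX9, BARHL1, BARHL2, IRX2 and IRX3, and the AP-2 gene TFAP2B, are also on the marker lists used to name the RELN6-like class. Their levels in it are therefore not an independent reading. PAX7 and LMX1B had log2 ratios of -0.52 and -0.82 at low levels, 4.65 against 7.11 CPM and 0 against 0.768 CPM. OTX2, also on the list, was not found among the counted genes. The thalamic gene GBX2 did not exceed 0.637 CPM and POU4F1 had no UMI in any class of the series, so neither sets the RELN6-like cells apart. The list medians are descriptions, since the lists were written with earlier results known.

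Across classes the 5 genes had different second homes. Only libraries with 20 or more cells of a class are used, and the classes are ordered by their median over libraries. For TCF7L2, ZFHX3, ZFHX4 and TFAP2D the RELN6-like cells came first, with 1 library, although ZFHX4 in astroglia and radial glia-like nuclei of E70_nc was at 441.7 CPM. EBF1 was highest in Purkinje-like cells, at 1557 CPM in E50_1 and 2225 CPM in E60_1, followed by mural-like cells, and RELN6-like cells were at place 5.

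TCF7L2 was next highest in committed precursor-like cells, the stage between oligodendrocyte precursor cells (OPCs) and myelinating oligodendrocytes, at 653.5 CPM in E60_1, 396.0 in E60_2 and 281.0 in E70_nc. Fibroblast-like cells (median 253.7 CPM over 5 libraries), OPC-like cells (215.9 over 6) and endothelial-like cells (204.1 over 6) followed, and the ranges of neighbours in this order overlapped. Below oligodendrocyte-like cells (90.8 in Adult_1 and 112.3 in Adult_nc) came a gap to granule neuron-like cells, the highest of which was at 65.6 CPM. GABAergic neuron-like cells had a median of 24.8 CPM over 7 libraries, with 187.7 CPM in the 25 cells of E50_1, of which 12.0% had a TCF7L2 UMI. Cortical excitatory-like cells lay between 0 and 26.8 CPM in 7 libraries and Purkinje-like cells between 2.97 and 8.27 CPM in 2. The committed precursor-like cells themselves were divided. In E60_1 the 67 cells of cluster 41, with the myelin gene MBP at 10540 and BCAS1 at 5728 CPM, had TCF7L2 at 1493 CPM, whereas the 135 cells of cluster 32, with MBP at 853.1 CPM, had 319.6 CPM. The OPC-like cells of cluster 15 in the same library had 239.9 CPM. Adult oligodendrocyte-like cells of Adult_1, with MBP at 10920 CPM, had TCF7L2 at 90.8 CPM. The level in cluster 41 of E60_1 was thus close to that of the E50 RELN6-like cells, while ZFHX3 was at 10.35, EBF1 at 6.90 and ZFHX4 at 3.45 CPM there and TFAP2D had no UMI.

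EBF1 was at 1257 CPM in mural-like cells of E50_1, 1629 in E60_1, 1391 in E60_2 and 1295 in Adult_1, and no endothelial-like library reached these. Endothelial-like cells lay between 476.5 CPM (Adult_1) and 1061 CPM (E60_2) in 6 libraries, above every fibroblast-like library (189.9 to 463.9 CPM over 5). Unnamed cluster 24, led by RGS5, FOXF2 and HIGD1B at a median of 15904 UMIs per cell, had EBF1 between 946.0 and 1668 CPM in 5 libraries. Cajal-Retzius cells are RELN neurons of the early cortex. In the 32 Cajal-Retzius-like cells of E60_3 EBF1 was at 155.8 CPM and the other 4 genes were between 6.03 and 23.1 CPM. EBF1 lay between 0 and 47.0 CPM in cortical excitatory-like cells of 7 libraries and between 12.45 and 46.85 CPM in astroglia and radial glia-like cells of 9.

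TFAP2D was high in few cells besides the RELN6-like ones. IP-like cells, the cortical precursors with EOMES, had a median of 61.9 CPM over 6 libraries (32.1 to 130.9), granule neuron-like cells 25.3 CPM over 3 (0.831 to 79.4), photoreceptor-like cells 23.6 CPM over 4 (12.8 to 32.9) and cortical excitatory-like cells 18.7 CPM (0 to 102.7) over 7. Within the E50 cortical excitatory-like cells TFAP2D was concentrated in cluster 30. Its 271 cells had TFAP2D at 357.9 CPM (332.7 to 384.5) and in 44.65% of cells, against 36.6, 19.6 and 15.2 CPM in clusters 0, 6 and 28. Cluster 30 carried the cortical genes NEUROD6 (539.9 CPM) and EMX1 (68.0 CPM), with TCF7L2 at 55.6 CPM, LHX9 at 41.2 CPM and NDST4 at 43.6 CPM. TFAP2D was the leading gene of this cluster, although it was kept out of the clustering.

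ZFHX4 was next highest in IP-like cells (median 143.8 CPM over 6 libraries, 112.4 to 319.0), photoreceptor-like cells (138.5 over 4) and astroglia and radial glia-like cells (136.3 over 9, from 35.1 in E60_1 to 441.7 in E70_nc). These ranges overlapped. ZFHX3 was next highest in mural-like cells (174.5 CPM over 4 libraries, 142.2 to 488.9), photoreceptor-like cells (130.1 over 4) and microglia-like cells (101.1 over 8, up to 322.4 in Adult_nc), also with overlapping ranges. In Purkinje-like cells ZFHX3 and ZFHX4 were both at 12.8 CPM or less.

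**Figure D3:**
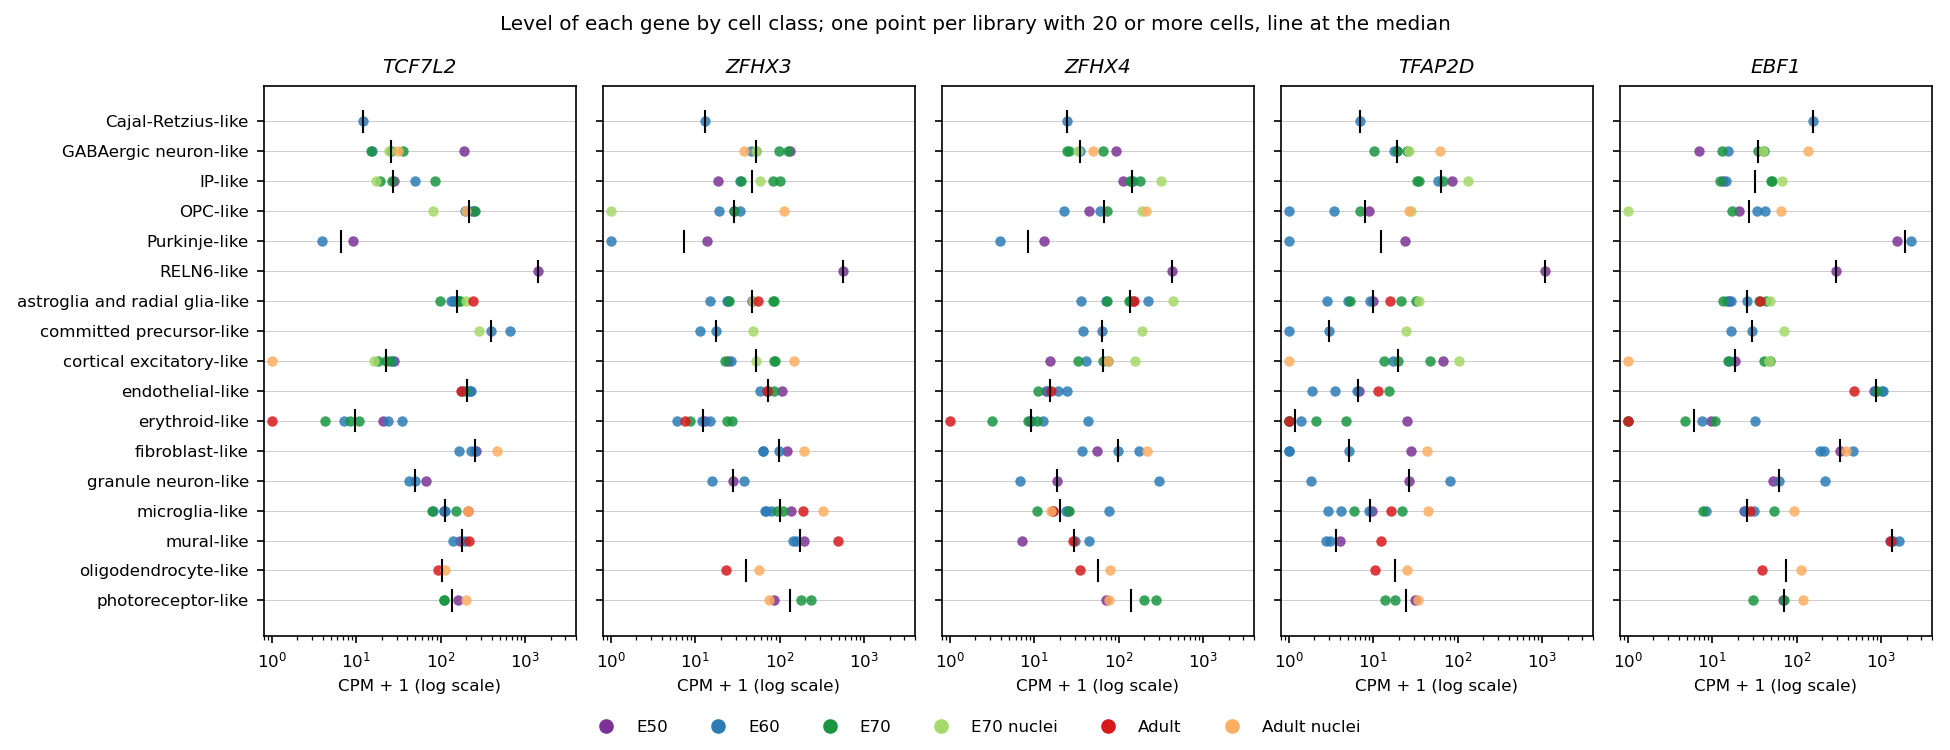
Level of each gene (x axis, CPM + 1, log scale) in 17 cell classes (y axis), with 1 point per library of 20 or more cells, coloured by stage and by cells or nuclei, and a line at the median. By the median, RELN6-like cells (1 library) are highest for TCF7L2, ZFHX3, ZFHX4 and TFAP2D, and Purkinje-like and mural-like cells are highest for EBF1.

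Genes whose levels most resembled each of the 5 were sought over 49 groups of library and class with 100 or more cells, among 15699 genes. The groups share libraries and depth, so Pearson's r of log2(CPM + 1) is a description. TCF7L2 was nearest to KLF3 (r = 0.76), ZFP36L2 (0.73) and NEK7 (0.73), ZFHX3 to HS3ST2 (0.76), LLGL2 (0.76) and RBPMS (0.73), and ZFHX4 to ZBTB20 (0.74), ANKRD6 (0.72) and GRAMD1C (0.72). EBF1 was nearest to FOXP2 (0.76), RBMS1 (0.73) and SPTBN1 (0.73). The 3 genes nearest to TFAP2D (0.76 to 0.78) were listed by identifier only. None of the 5 was among the 3 nearest of another.

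Levels of classes were compared within libraries of E60 and E70 whole cells by edgeR's quasi-likelihood test on UMIs summed per library and class, with the library as a block and Benjamini-Hochberg adjustment over all genes tested. Between mural-like and endothelial-like cells 4 of the 5 genes were tested and all 4 passed, where 31.6% of all 12524 genes did. This comparison rested on E60_1 and E60_2, the libraries that stood apart, and cannot be given without them. With so few libraries its p-values rested largely on a spread estimated over all genes. ZFHX3 was at 154.4 and 142.2 CPM in mural-like cells and at 71.3 and 57.75 CPM in endothelial-like cells (log2 difference 1.08, SE 0.15, edgeR adjusted p = 0.000428). ZFHX4 was at 29.6 and 43.3 against 13.4 and 18.3 CPM (1.07, SE 0.26, edgeR adjusted p = 0.00978). EBF1, which marks pericytes, was at 1629 and 1391 against 1034 and 1061 CPM (0.41, SE 0.09, edgeR adjusted p = 0.00604). TCF7L2 was lower in mural-like cells, at 192 and 138 against 225 and 215 CPM (-0.52, SE 0.15, edgeR adjusted p = 0.02905). For each of the 4 the classes did not overlap. DESeq2 called ZFHX3 alone of them. Unnamed cluster 24, led by RGS5, FOXF2 and HIGD1B, was in neither class. In E60_1 and E60_2 it had TCF7L2 at 233.1 and 262.5 CPM, above endothelial-like cells. ZFHX4 was at 3.81 and 11.6 CPM there, below endothelial-like cells, so both genes went the other way from mural-like cells. ZFHX3 (126.4 and 113.8 CPM) and EBF1 (1668 and 1541 CPM) were above endothelial-like cells in it, as in mural-like cells. When libraries with 10 or more cells were let in, an alternative chosen after seeing the data, E60_3 entered with 11 mural-like cells and EBF1 at 196 CPM, and the EBF1 difference became -0.38 (edgeR adjusted p = 0.716). TFAP2D was too low to be tested.

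Oligodendroglia-like cells (OPC-like, committed precursor-like and oligodendrocyte-like together) had more TCF7L2 than astroglia and radial glia-like cells. TCF7L2 was at 424.1 CPM in E60_1, 308.2 in E60_2 and 247.7 in E70_3, against 147.9, 130.8 and 168.3 CPM, so the classes did not overlap (log2 difference 1.08, SE 0.25, edgeR adjusted p = 0.0350). It was the 1 gene of 5 that passed, where 7.48% of all 13209 genes did. The call was lost without E60_1 (0.83, edgeR adjusted p = 0.105) and without E60_2 (1.04, edgeR adjusted p = 0.1465). In E60_1, E60_2 and E70_3 OPC-like cells numbered 286, 57 and 76 and committed precursor-like cells 202, 68 and 1. Oligodendrocyte-like cells numbered 2, 0 and 0, so the comparison hardly covered them. OPC-like cells alone had TCF7L2 at 232.4 CPM in E60_1 and 195.2 CPM in E60_2. The part of this mix in the difference was not tested.

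GABAergic neuron-like cells had more ZFHX3 than cortical excitatory-like cells in each of 4 libraries. ZFHX3 was at 44.3, 124.6, 97.97 and 51.6 CPM in GABAergic neuron-like cells of E60_3, E70_1, E70_2 and E70_3, against 25.2, 86.4, 85.03 and 21.6 CPM (log2 difference 0.65, SE 0.16, edgeR adjusted p = 0.0191). It was the 1 gene of 5 that passed, where 12.3% of all 13346 genes did. E70_1 and E70_2 lay above the other libraries in both classes, so the groups overlapped across libraries but not within one. ZFHX4 had a log2 difference of -0.57 (SE 0.19) that missed the threshold (edgeR adjusted p = 0.0693). The ZFHX3 call was lost without E60_3 (0.61, edgeR adjusted p = 0.104) and without E70_3 (0.50, edgeR adjusted p = 0.0668).

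The change from E60 to E70 passed for none of the 5 genes in all cells, in astroglia and radial glia-like cells or in microglia-like cells, where edgeR called 0% of all 16743, 13690 and 12197 genes. At an unadjusted p below 0.05 edgeR found 2, 1 and 0 of the 5, and the share of all genes at that threshold was not taken. DESeq2 called 1, 0 and 0 of the 5, and 2833, 661 and 307 of all genes in the same order. In all cells EBF1, the 1 gene DESeq2 called (adjusted p = 0.00814), was at 314.6, 531.6 and 101.6 CPM in the E60 libraries and at 102.8, 80.4 and 70.2 CPM in the E70 libraries (log2 difference -2.20, SE 0.62, edgeR adjusted p = 0.122). E60_1 and E60_2 were high and E60_3 lay among the E70 libraries. E60_1 and E60_2 held 608 and 702 endothelial-like cells and the other 4 libraries 5 to 46, and the part of these cells in the result was not tested. TCF7L2 was at 140.5, 162.4 and 84.98 against 69.05, 57.3 and 81.6 CPM (-1.14, SE 0.37, edgeR adjusted p = 0.126). TFAP2D was at 3.19, 4.29 and 18.2 against 33.1, 19.3 and 11.13 CPM. Without E60_1 and E60_2, chosen after seeing the data, the difference was -0.28 for EBF1, -0.29 for TCF7L2 (edgeR adjusted p = 0.9485 for each) and 0.18 for TFAP2D (edgeR adjusted p = 0.966). The E60 side of this fit is E60_3 alone, which is assumed to vary like the E70 libraries. Without E60_3, 3 genes passed, namely EBF1 (-2.66, edgeR adjusted p = 0.0149), TCF7L2 (-1.44, edgeR adjusted p = 0.0186) and TFAP2D (2.15, edgeR adjusted p = 0.0257). In that fit edgeR called 5902 of all genes, so passing was not particular to these 3.

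In astroglia and radial glia-like cells ZFHX3 was at 23.2, 13.9 and 22.7 CPM in the E60 libraries and at 81.4, 83.85 and 23.8 CPM in the E70 libraries (log2 difference 1.57, SE 0.51, edgeR adjusted p = 0.268). E70_1 and E70_2 were high and E70_3 lay with E60. The same 2 libraries had more ZFHX3 than E70_3 in GABAergic neuron-like, cortical excitatory-like, IP-like and erythroid-like cells. In astroglia and radial glia-like cells they also had more TFAP2D (30.8 and 20.2 against 4.29 CPM) and EBF1 (41.8 and 35.02 against 12.45 CPM) than E70_3. They had the fewest cells of the whole-cell fetal libraries (493 and 617) and the highest median depths (9294 and 9403 UMIs). The part of depth in this result was not tested. Without E70_1 and E70_2, also chosen after seeing the data, the difference was 0.19 (edgeR adjusted p = 0.999), without E60_1 and E60_2 it was 1.45 (edgeR adjusted p = 1), and without E70_3 it was 1.95 (edgeR adjusted p = 0.0192). In the first of these fits E70_3, and in the second E60_3, stands alone for its stage and is assumed to vary like the libraries of the other stage. TCF7L2 in these cells was at 147.9, 130.8 and 139.3 CPM at E60 and 165.0, 97.6 and 168.3 CPM at E70. In microglia-like cells the 5 log2 differences lay between -1.42 for ZFHX4 (SE 0.84) and 1.36 for TFAP2D (SE 0.92), with edgeR adjusted p-values of 0.5586 or more. Without E60_1 and E60_2, with E60_3 alone for its stage, they lay between -0.41 for ZFHX4 and 1.97 for EBF1, with an edgeR adjusted p of 0.9999 for each. A test of whether the change with stage differed between microglia-like and astroglia-like cells passed for none of the 5 (edgeR adjusted p = 1 for each), and it was not refitted without E60_1 and E60_2.

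**Figure D4:**
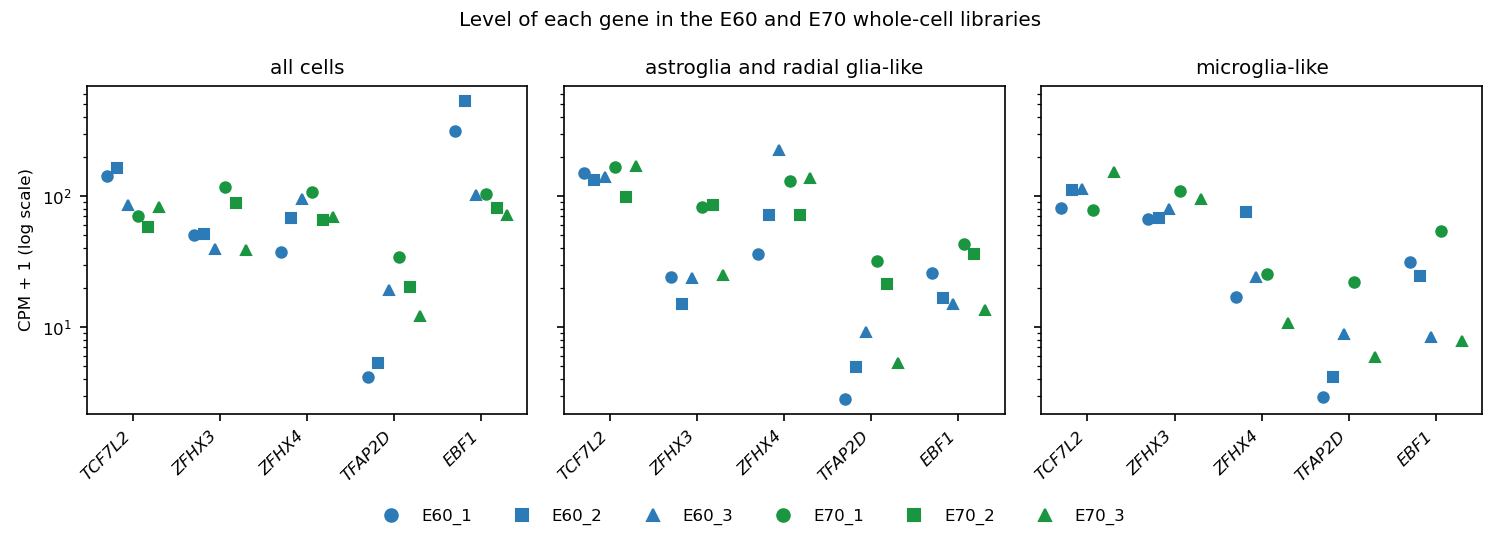
Level of each gene (y axis, CPM + 1, log scale) in the 3 E60 and 3 E70 whole-cell libraries, for all cells, astroglia and radial glia-like cells and microglia-like cells (5 libraries, since E70_2 had 19 cells). E60_1 and E60_2 lie above the other 4 libraries for EBF1 in all cells, and E70_1 and E70_2 lie above the other 4 for ZFHX3 in astroglia and radial glia-like cells.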

How the data were processed

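UMIs were counted by the authors with Cell Ranger (version 2.20 per the labels) on Sscrofa11.1, with reads mapped to pre-mRNA, and the deposited count tables held whole, unnormalized UMI counts per gene and cell. Cells came from 8 whole-cell and 2 nuclei libraries with 2336865 to 55755512 UMIs each. Each library is 1 sample, made from 1 to 3 brains by the labels. In the tests of stage, p-values measure the spread between libraries of a stage. In the tests of classes, where the library was a block, they measure how the class difference varied between libraries. For mural-like against endothelial-like cells these were E60_1 and E60_2 alone, so that spread came largely from all genes together.

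Cells were clustered after a batch correction by mutual nearest neighbours (3000 variable genes, 50 principal components, Louvain resolution 1.6, scanpy 1.11.5), with the 5 genes and the listed genes, 174 in all, kept out. Clusters were named from marker lists. Doublets were called by Scrublet (186 cells, 0.659%) and kept. The caller marked no cell of E60_1 or E60_2 and so did not work there. UMIs were summed per library and class and given as counts per 1000000 UMIs (CPM) with exact Poisson intervals. Shares of cells were also taken after thinning to 1000 UMIs. Sums of 20 or more cells were tested with edgeR 4.0.16 (TMM, filterByExpr, adjusted p threshold 0.05) and, as an alternative, DESeq2 1.42.0, and both were tested on simulated data. Alternatives were another normalization, no filter on low counts, fits with and without a replicate or library block, each library left out, another clustering resolution and no batch correction. The genes named are the 5 genes, the listed families and the 3 genes most like each. The list of telencephalic and cortical genes is not reported here. The 5 genes and the lists were chosen with earlier results of these data known. Upstream sequence came from RefSeq on Sscrofa11.1. Stage tests in GABAergic neuron-like, oligodendroglia-like, endothelial-like and mural-like cells were not made, since a stage had fewer than 2 libraries.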

Additional observations from a re-analysis of the deposited data

How the results depend on the processing

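Levels in the E50 RELN6-like cells depended on how the cells were chosen. Without batch correction, which gave 1253 cells, TCF7L2 was at 523.4, ZFHX3 at 307.9, ZFHX4 at 257.8, TFAP2D at 391.5 and EBF1 at 212.9 CPM. In 403 cells chosen by UMIs of 6 genes TCF7L2 was at 785.3, ZFHX3 at 384.4, ZFHX4 at 266.7 and TFAP2D at 631.0 CPM. Drawn down to 1000 UMIs, TCF7L2 was at 1490 and EBF1 at 315.2 CPM. TCF7L2 in committed precursor-like cells of E60_1 (653.5 CPM) was at 366.8 CPM without batch correction and 716.4 CPM as a mean over cells, and ZFHX4 in photoreceptor-like cells of E70_3 (274.5 CPM) at 225.3 CPM as a mean over cells. The cause of these shifts was not tested.

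Between mural-like and endothelial-like cells 1 of the 4 genes was called by DESeq2, 1 without the library block and 1 with libraries of 10 or more cells, an alternative chosen after seeing the data in which EBF1 reversed to -0.38. Between oligodendroglia-like and astroglia-like cells 0 were called without the block, and between GABAergic neuron-like and cortical excitatory-like cells 0 without the block, 2 without a filter on low counts and 3 at resolution 0.8. DESeq2 called 1 gene of the 5 and 2833 of all genes for stage in all cells, 661 in astroglia-like and 307 in microglia-like cells, where edgeR called 0. Leaving out 1 library gave 0 to 3 calls for stage in all cells (3 without E60_3), 0 to 1 in astroglia-like cells (1 without E70_3) and 0 in microglia-like cells, 0 to 1 for oligodendroglia-like cells and 0 to 1 for GABAergic neuron-like cells. Over all genes, edgeR called 0 for stage in each comparison, but without E60_3 5902 in all cells and 15 in astroglia-like cells, without E70_3 1570 in all cells, 765 in astroglia-like and 190 in microglia-like cells, and without a filter 66 in microglia-like cells. Against 3959 genes for mural-like cells, DESeq2 called 2016 and the fit with libraries of 10 or more cells 1504. Against 988 for oligodendroglia-like cells, 1720 were called without a filter, 45 without the block, 419 without E60_1, 654 without E60_2 and 576 without E70_3. Against 1636 for GABAergic neuron-like cells, DESeq2 called 981, and 181 were called without the block, 805 without E60_3, 1056 without E70_3 and 1051 without batch correction. With 1 library left out the log2 differences ranged from -2.66 to -1.47 for EBF1 and -1.44 to -0.84 for TCF7L2 with stage in all cells, 1.25 to 1.95 for ZFHX3 with stage in astroglia-like cells, 0.83 to 1.39 for TCF7L2 in oligodendroglia-like cells, and 0.50 to 0.86 for ZFHX3 and -0.68 to -0.30 for ZFHX4 in GABAergic neuron-like cells. With the replicate number as a block 0 of the 5 genes were called for stage in each of the 3 comparisons, and same-numbered libraries correlated at -0.172 to 0.028, so the numbers did not pair the libraries.

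Differences are followed singly here for genes at an unadjusted p below 0.05, a choice made after the fits were seen. For the others 29 of 227 alternative fits changed the sign and 2 passed, both for TFAP2D. Mural-like against endothelial-like cells could not be fitted with a library left out, and the stage test of astroglia-like cells could not be run without batch correction.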
